A study of Mus musculus with 4 samples.

Results

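The 500 broad NR2F1 domains described here are the stretches of the autosomes that held the most anti-NR2F1 cut sites in 1 library of wildtype (WT) E10.5 mouse hindbrain, WT replicate 1. Called peaks of that library on chromosomes 1 to 19 were joined where they lay 5 kb or less apart, an rDNA-like stretch of chromosome 17 was left out, and the members were chosen by the cut sites of WT replicate 1 summed over its cell barcodes. The joining gave 30898 domains, so the members are 1.62% of them, and their WT replicate 1 counts are given as a description only. The counts of the other 3 libraries played no part in the choice.

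Single-cell CUT&Tag tethers a transposase to an antibody so that DNA near the antibody's target is cut and tagged, and each cut site is a unit of signal. The 4 libraries were made from microdissected rhombomere 4 (r4) and adjacent tissue of E10.5 embryos, pooled from 26 and 26 embryos for WT replicates 1 and 2, and from 8 and 16 embryos for Fam5snv/snv replicates 1 and 2, which are homozygous for a single-nucleotide variant at a Gata2 regulatory element. All embryos carried the Isl1MN-GFP transgene, which labels motor neurons, and GFP-negative cells were let through at the end of the sort, so that other cells of the tissue can be among the barcodes and fewer cells of a type cannot be told apart from less signal per cell. The WT libraries held 3083946 and 3580517 cut sites over 2572 and 1377 barcodes, and the Fam5snv/snv libraries 8967987 and 10341894 over 2274 and 2740. Nothing in the labels states more about what separates replicates than their separate pools, so the p-values below measure the spread between these pools.

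NR2F1 (COUP-TFI) is an orphan nuclear receptor that binds direct repeats of AGGTCA, alone or with its paralogues and with retinoid X receptors, and it recruits corepressors as well as coactivators. In the developing nervous system it takes part in regional identity, cell migration and axon growth. Wide clusters of neighbouring peaks are a common feature of factor and cofactor profiles at highly regulated genes, while narrow, dense signal is common at CpG-rich promoters.

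The sequences of 6 members are shown because they hold, inside a WT replicate 1 peak, a perfect direct repeat of the kind that COUP-TFs bind, AGGTCA and AGGTCA with 1 base between them. They are the first 6 by rank among the members that hold it. Coordinates are those of mm10, the bases were read from the RefSeq GRCm38.p6 assembly, which has the same coordinates, the strand given is the one printed 5′ to 3′, and capitals mark the repeat.
Gse1 domain, chr8:120565125-120565217, plus strand: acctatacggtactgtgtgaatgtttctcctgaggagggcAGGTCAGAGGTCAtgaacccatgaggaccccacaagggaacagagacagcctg
Kcnh2 domain, chr5:24343768-24343860, minus strand: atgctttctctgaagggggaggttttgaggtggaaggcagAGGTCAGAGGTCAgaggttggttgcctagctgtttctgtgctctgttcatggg
Nr2f6 domain, chr8:71378214-71378306, plus strand: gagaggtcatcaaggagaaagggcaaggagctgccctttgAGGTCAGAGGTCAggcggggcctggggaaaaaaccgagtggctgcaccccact
Abhd8 domain, chr8:71469403-71469495, minus strand: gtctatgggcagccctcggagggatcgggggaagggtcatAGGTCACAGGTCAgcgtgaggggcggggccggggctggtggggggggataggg
Tspan9 domain, chr6:128022429-128022521, minus strand: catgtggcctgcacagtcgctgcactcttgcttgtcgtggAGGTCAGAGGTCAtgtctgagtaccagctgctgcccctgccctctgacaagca
Ythdf1 domain, chr2:180881415-180881507, minus strand: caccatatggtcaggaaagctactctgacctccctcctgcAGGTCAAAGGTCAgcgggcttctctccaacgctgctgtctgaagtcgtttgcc
The Gse1 repeat lay within Gse1, 24139 bp from the nearest coding transcription start site (TSS), and the Kcnh2 and Tspan9 repeats lay within those genes, 7796 bp and 114240 bp from the nearest coding TSS. The Nr2f6 repeat lay 3706 bp from the Nr2f6 TSS in a peak with 72.6% of the domain's cut sites. The repeat of the domain named Abhd8 lay within Dda1, 238 bp from its TSS, and that of the domain nearest Ythdf1 lay between genes, 39494 bp from the Ythdf1 TSS. The spacer was G in 4 of these repeats, C in 1 and A in 1.

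Such repeats were few. Searched on both strands, the repeat occurred 33 times in the called peaks of 32 members (6.40%) and 508 times in those of all domains, or 12.2 against 16.6 repeats per Mb of called peak. It was held by 1.43% of all domains and by 3.40% of the 500 domains next in rank, which had 9.96 repeats per Mb. The shares of domains do not allow for the greater called length of members. The single site AGGTCA, whether or not part of a repeat, occurred 0.891 times per kb of called peak in members and 0.929 times per kb in all domains. Within 500 bp centred on the strongest peak of each domain, 193 members (38.6%) and 37.4% of all domains held AGGTCA. Per length of called peak the members thus held these letters at a rate no higher than that of all domains.

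The label of breadth held for most members but not for all. The members were 1364 bp to 60805 bp wide with a median of 8750.5 bp, where the median of all domains was 749 bp. Of the members, 220 (44.0%) spanned 10 kb or more, against 2.38% of all domains, and 19 spanned 30 kb or more. At the other end, 94 members (18.8%) were under 3 kb and 133 (26.6%) were a single called peak that had been joined to nothing. The 133 single-peak members had a median width of 2329 bp and a median of 330 cut sites per kb of called peak in WT replicate 1, and the 367 joined members had a median width of 11882 bp and 143 cut sites per kb. Every member held at least 594 WT replicate 1 cut sites, so narrow members had to be dense and wide ones did not. This difference in density, seen in the plot of width against cut sites, thus followed in part from the rule. Member widths had quartiles of 4108.75 and 15596.8 bp, so many lay between the medians of single-peak and joined members.

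**Figure D1:**
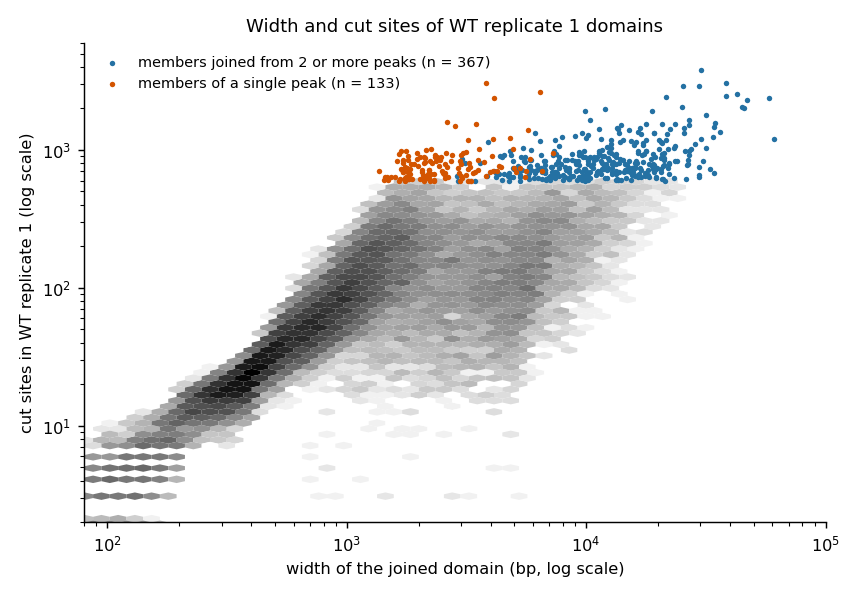
Width of each WT replicate 1 domain in bp against its cut sites in that library, both on log scales. Grey hexagons are the domains that are not members, darker where there are more of them; blue points are the 367 members joined from 2 or more peaks and orange points the 133 members of a single peak. All members lie at or above 594 cut sites by the way they were chosen, and the single-peak members lie to the left of most joined members.

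Peaks were joined differently in the other libraries. Each member overlapped at least 1 called peak in every library, with a median of 3 peaks in WT replicate 1 and 2 in each of the other libraries and up to 19, 19, 15 and 12 peaks in WT replicates 1 and 2 and Fam5snv/snv replicates 1 and 2. Members that overlapped a single peak numbered 133, 166, 186 and 212 in that order, and the median called length at a member was 4873, 6943.5, 8068 and 9429.5 bp.

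The same single-peak and joined members were then read in the libraries that did not choose them. The regions and their classes came from WT replicate 1, so these values are a description and no separate support for the split. Single-peak members had medians of 180, 368 and 353 cut sites per kb of called peak in WT replicate 2 and Fam5snv/snv replicates 1 and 2, whereas joined members had 69.6, 153 and 142. All domains had 37.0, 82.1 and 78.2 cut sites per kb in the same order. The density of single-peak members was thus 4.86, 4.49 and 4.52 times the median of all domains in these 3 libraries, and that of joined members 1.88, 1.86 and 1.82 times.

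Most members ranked high in every library. By cut sites in the peaks that overlapped a domain by at least 1 bp, 392 members were among the 500 strongest of the 30898 domains in WT replicate 2, 411 in Fam5snv/snv replicate 1 and 397 in Fam5snv/snv replicate 2, and 332 were among the 500 strongest in all 4 libraries. All 50 of the highest-ranked members were among them in each library. Among them in the 3 libraries were 202, 210 and 210 of the 220 members of 10 kb or more, and 62, 52 and 51 of the 94 members under 3 kb. Spearman's rho between WT replicate 1 and the other libraries over the 500 members was 0.78, 0.79 and 0.75, a description over regions that share libraries and peak calls. When ranked by cut sites per kb of called peak, only 125, 121 and 115 members were among the 500 highest domains of WT replicate 2 and Fam5snv/snv replicates 1 and 2.

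The members held 14.6% of the cut sites on chromosomes 1 to 19 in WT replicate 1, a share that the choice fixed. They held 9.21% in WT replicate 2 (95% exact binomial interval 9.18% to 9.24%), 9.42% in Fam5snv/snv replicate 1 (9.40% to 9.44%) and 8.50% in Fam5snv/snv replicate 2 (8.48% to 8.51%). These intervals cover counting error only. The members took a larger share in the library that chose them than in any other. The other libraries were called over more DNA: their peaks covered 67.7%, 76.5% and 82.4% of the joined width of the members, against 49.2% in WT replicate 1. Of the length of the peaks that overlapped a member, 9.80%, 13.1% and 18.02% lay outside the member's bounds in WT replicate 2 and Fam5snv/snv replicates 1 and 2.

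Cut sites in members were counted per barcode as a description. The number of members a barcode reaches follows largely from its depth and from the members' share of cut sites. No other set of domains was drawn, so how the signal was spread over cells or cell types was not tested. To set the libraries at equal depth, 567 cut sites were drawn from each barcode, which left out 641 shallower barcodes of WT replicate 1 and 0 of the other libraries. The median barcode then had cut sites in 52 members in WT replicate 1, 41 in WT replicate 2, 44 in Fam5snv/snv replicate 1 and 40 in Fam5snv/snv replicate 2, and no barcode had none. The median member had a cut site in 9.30%, 7.41%, 7.96% and 7.19% of thinned barcodes, and in 12.3%, 16.3%, 23.0% and 21.04% of barcodes before thinning. The median share of a barcode's own cut sites that lay in members was 14.6% in WT replicate 1, 9.49% in WT replicate 2, 9.42% in Fam5snv/snv replicate 1 and 8.43% in Fam5snv/snv replicate 2.

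The strongest member spanned the start sites of Ndufa4l2, Shmt2 and Nxph4 (chr10:127508225-127538287, 7 peaks over 30063 bp), the genes of an NDUFA4-like mitochondrial protein, the mitochondrial serine hydroxymethyltransferase and a neurexophilin. It held 3790 cut sites in WT replicate 1, 2287 in WT replicate 2, 6695 in Fam5snv/snv replicate 1 and 6955 in Fam5snv/snv replicate 2. It ranked 1, 2, 1 and 1 of all domains in these libraries. After thinning, it had a cut site in 35.1%, 23.7%, 29.9% and 28.6% of barcodes. It was the strongest domain in 3 of 4 libraries and the second in the fourth.

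The other members of the first 15 ranks were of both kinds. A single peak at the start of Ppp2r3d, a regulatory subunit gene of protein phosphatase 2A (rank 3, chr9:124422331-124426149, 3819 bp), held 3058, 1826, 4404 and 4540 cut sites in the order above. Single peaks too were the member within Igdcc3, which encodes an immunoglobulin superfamily membrane protein (rank 6, chr9:65174916-65181349, 6434 bp), and that at Agpat1 and Rnf5 (rank 10, chr17:34602808-34606924, 4117 bp). Ppp2r3d had the highest density of these, at 801 and 462 cut sites per kb in WT replicates 1 and 2 and 990 and 1087 in Fam5snv/snv replicates 1 and 2.

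Wide members of the first 15 lay over clusters of promoters and over long introns. The Midn domain (rank 7, chr10:80136914-80179720) joined 14 peaks across the start sites of Midn, Atp5d, Cbarp, Cirbp, 1600002K03Rik and Efna2, the last an ephrin ligand of axon guidance, and held 2545, 2035, 5284 and 5458 cut sites. The Fzr1 domain (rank 14, chr10:81377798-81422754) joined 13 peaks at Fzr1, an activator of the anaphase-promoting complex, and its neighbours. A domain within Ephb2, an ephrin receptor of axon guidance (rank 13, chr4:136732365-136757596), lay in an intron, 96920 bp from the nearest coding start. The Cdk5rap3 domain (rank 4, chr11:96884998-96910451) had its strongest peak between genes. On chromosome 2, 2 members lay between genes, with Cstad (rank 9, 64652 bp away) and 1700001O22Rik (rank 2, 83119 bp away) as the nearest coding starts, and the latter (chr2:30692044-30730238, 3078, 1976, 5315 and 5998 cut sites) held the start of Mir3089.

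The longest run of members lay across Gse1, which encodes a coiled-coil protein found in histone demethylase and deacetylase complexes. Within chr8:120176091-120570689, 9 members each lay within 50 kb of the next, 8 of them named by Gse1 and 1 by Fam92b, over 395 kb. Of the first 15 ranks, 4 were in this run (ranks 5, 8, 11 and 15). Its members together held 13575 and 10395 cut sites in WT and 27653 and 27331 in Fam5snv/snv, which is 3.06%, 3.20%, 3.32% and 3.15% of all member cut sites. The share of this run thus varied little between libraries, and the plot of called peaks across it shows the same stretches occupied in all 4.

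**Figure D2:**
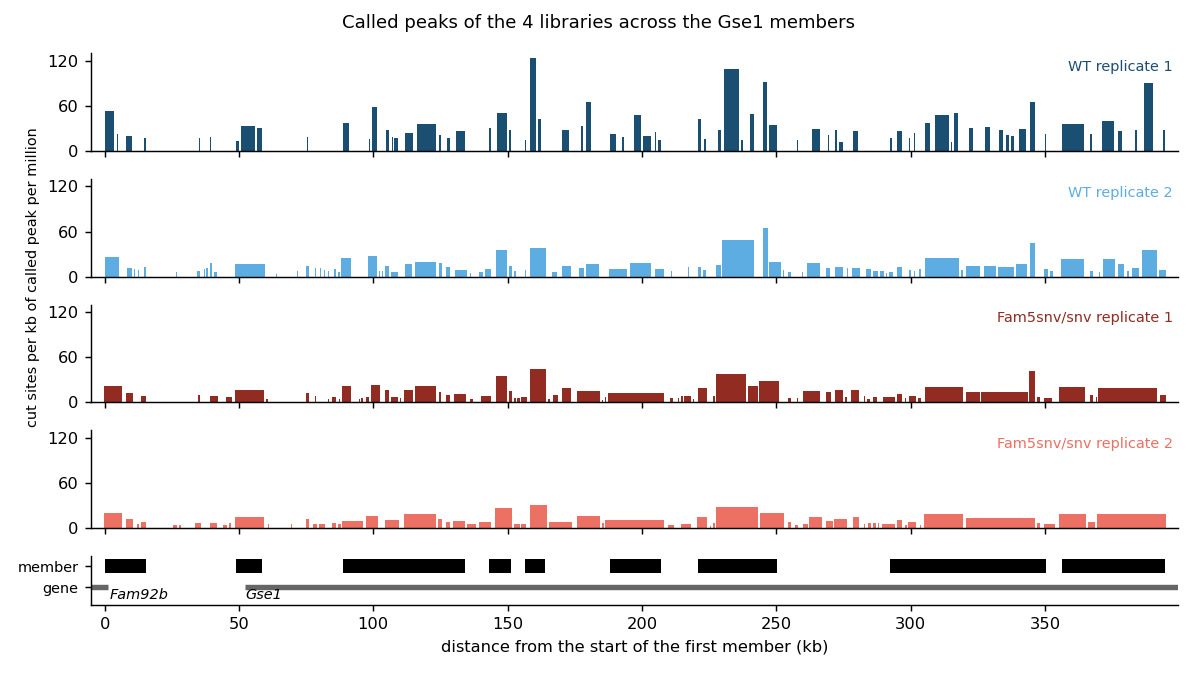
Called peaks of each library across the run of 9 members at Gse1 and Fam92b, as distance in kb from the start of the first member against cut sites per kb of called peak per 1e6 normalised cut sites. Each bar is a called peak as wide as drawn, black boxes are the members and grey lines the genes; peaks are wider and flatter in the Fam5snv/snv libraries and in WT replicate 2 than in WT replicate 1.

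Clustering was limited outside Gse1. Of the 500 members, 389 had no other member within 50 kb, and 111 (22.2%) lay in 47 runs of 2 or more. There were 9 runs of 3 or more, among them 4 members at Aurkb, Borcs6, Per1 and 9130213A22Rik and 4 at Fbxl16, Stub1, Mettl26 and Rab40c, named for their length after their values were seen. The 5 widest members were those at Casz1, a zinc-finger transcription factor gene (rank 58, 60805 bp, 17 peaks), Gse1 (57782 bp, 19 peaks), Tle3 (46971 bp, 11 peaks), a further part of Gse1 (45558 bp, 12 peaks) and Fzr1 (44957 bp, 13 peaks). Members were most frequent relative to domains on chromosome 7 (52 of 2030 domains, 2.56%) and chromosome 11 (58 of 2352, 2.47%), and least on chromosome 6 (13 of 1633, 0.796%).

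The share of members at coding starts was above that of all domains and near that of the domains next in rank. A coding TSS lay in or within 1 kb of 327 members (65.4%), against 36.0% of all domains and 67.4% of the 500 domains next in rank. Start sites of 2 or more coding genes were there in 26.6% of members, 4.91% of all domains and 19.2% of those next in rank. By the position of its strongest peak, 274 members (54.8%) were at a promoter, 94 (18.8%) in an intron, 31 (6.20%) in an exon and 101 (20.2%) between genes, where all domains had 34.04%, 27.4%, 5.62% and 32.9%. Single-peak members were at a coding TSS in 104 of 133 cases (78.2%) and joined members in 223 of 367 (60.8%). The wider a domain, the more start sites it can hold, so the shares of wide members and of all domains are not like for like.

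Base composition was read in 500 bp centred on the strongest peak. There, median GC content was 56.9% in members, 60.4% in single-peak members, 56.2% in joined members and 53.2% in all domains. The observed-to-expected CpG ratio had medians of 0.450 in members, 0.721 in single-peak members and 0.371 in joined ones, against 0.334 in all domains. The 500 domains next in rank had medians of 59.0% GC and a CpG ratio of 0.621, both above those of the members as a whole. Repeat-masked sequence took most of the called peak in 1 member, the Gm10800 domain (rank 324), and in 1.27% of all domains.

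Of 20696 coding genes, 510 (2.46%) had a TSS at a member, or 4.14% of the 12318 genes with a TSS at any domain, and these shares are the background for the gene lists, which are shown in the plot of gene lists. The nuclear receptor list had 6 of 42 genes at members. The first 4 by rank were the COUP-TF family gene Nr2f6 (rank 24), the retinoic acid receptor alpha gene Rara (rank 49), the clock repressor gene Nr1d2 (rank 133) and the retinoid X receptor gene Rxrb (rank 195, in a domain with H2-Ke6 and Ring1). Nr2f1 itself (rank 385) was among the other 2 and was picked after its values were seen. The Nr2f6 domain (chr8:71366630-71384364, 4 peaks), whose repeat is printed above, held 1554, 1234, 2476 and 2535 cut sites, which is 551 and 442 normalised cut sites (CPM, per 1e6 cut sites of the library's TMM-normalised total) in WT and 346 and 326 CPM in Fam5snv/snv. WT replicate 1 chose the domain, so the value to set against Fam5snv/snv is that of WT replicate 2. The domain of Nr2f1 itself (chr13:78200041-78211002, 2 peaks) held 662, 539, 1419 and 1769 cut sites, or 235, 193, 198 and 227 CPM, and WT replicate 2 lay below both Fam5snv/snv libraries there. The Rara domain (chr11:98953566-98975373) held 1302, 1064, 2691 and 2842 cut sites.

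**Figure D3:**
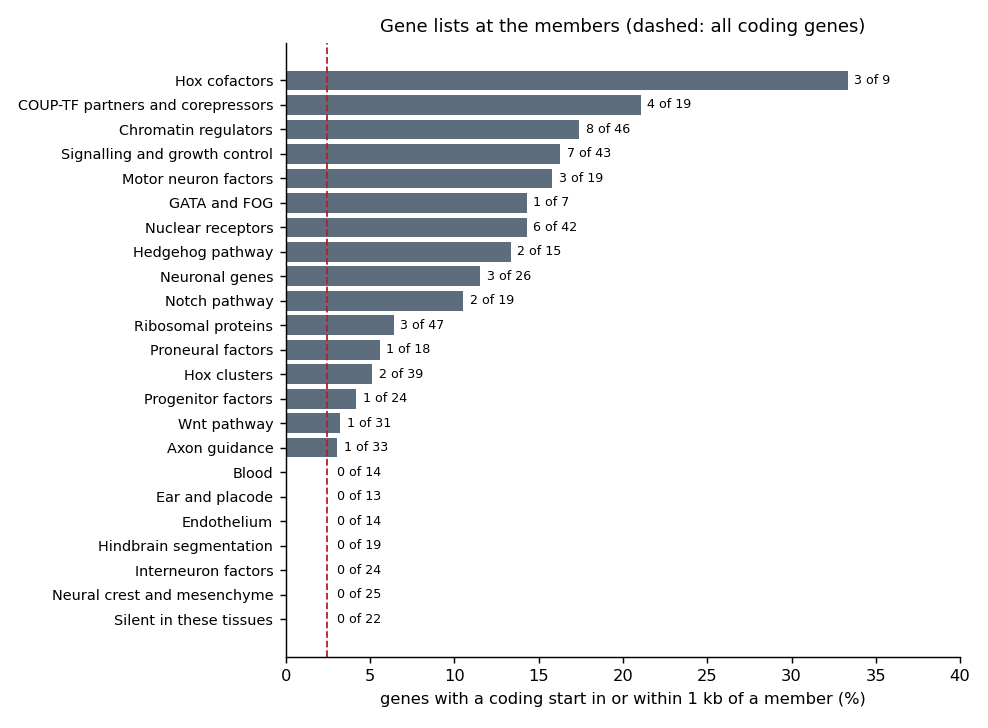
Percent of the annotated genes of each list that have a coding start in or within 1 kb of a member; the numbers beside the bars are the genes at a member of the genes in the list, and the dashed line is the 2.46% of all coding genes. Hox cofactors, corepressors and chromatin regulators have the longest bars, and 7 lists have no gene at a member.

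Partners and corepressors of COUP-TFs had 4 of 19 genes at members. Tle3 (rank 12, 2296, 1607, 4988 and 5200 cut sites) encodes a Groucho-family corepressor, Sin3a (rank 93) the scaffold of a histone deacetylase complex, Sp1 (rank 175) a zinc-finger activator and Rcor2 (rank 353) a corepressor of the REST complex. Chromatin regulators had 8 of 46, with the histone demethylase gene Kdm6b (rank 16, 1969, 1310, 3228 and 3261 cut sites), the remodeller gene Chd4 (rank 165), the Polycomb gene Ring1 (rank 195) and the histone demethylase gene Kdm2a (rank 218) as the first 4. Growth control genes had 7 of 43, led by the AP-1 genes Junb (rank 34) and Jund (rank 111), with Ier2 (rank 156) and Mycl (rank 303).

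Of the developmental lists, some were at members and others were not. Hox cofactors had 3 of 9 genes at members, Pbx2 (rank 315, in a domain with Gpsm3), Meis3 (rank 326) and Pknox1 (rank 440), which encode TALE homeodomain partners of Hox proteins. Motor neuron factors had 3 of 19, Tbx2 (rank 76), Ebf3 (rank 86) and Lhx4 (rank 207), with 393, 292, 297 and 305 CPM at Tbx2, where WT replicate 1 stood above the other libraries. The GATA list had 1 of 7, Zfpm1 (rank 32), which encodes the GATA partner FOG1 and held 1451, 1342, 2932 and 2843 cut sites. Neuronal genes had 3 of 26 (Ache, Elavl3 and Tubb3), the Notch pathway 2 of 19 (Mfng and Lfng, modifiers of the Notch receptor), the Hedgehog pathway 2 of 15 (Ptch1, the Hedgehog receptor, and Sufu, an inhibitor of Gli factors), ribosomal proteins 3 of 47, and progenitor factors (Hes5), proneural factors (Insm1), the Wnt pathway (Gsk3b) and axon guidance (Efna2) 1 each. Hindbrain segmentation (0 of 19) and interneuron factors (0 of 24) had none, which for lists this short is near the 2.46% share of all coding genes.

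No gene of the lists for other cell types was at a member. At the 2.46% share of all coding genes, lists this short would hold few or none, so these zeros are near the background. Neural crest and mesenchyme had 0 of 25, endothelium 0 of 14, blood 0 of 14, ear and placode 0 of 13, and genes silent in these tissues 0 of 22. Of the crest, endothelium, blood and ear genes, 16, 5, 3 and 10 were at domains of lower rank, and of the silent genes 0 were at any domain. The antibody signal is not expression, so these counts do not say which cells were sorted.

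Gata2, the gene that the variant concerns, was at no member. Its start site lay in or within 1 kb of a domain of rank 1735 (chr6:88189449-88198955) with 332 cut sites in WT replicate 1, 323 in WT replicate 2, 509 in Fam5snv/snv replicate 1 and 679 in Fam5snv/snv replicate 2. The position of the variant, as the study's text gives it on mm10, lies inside a member. So does the COUP-TF site that the study gives for cRE1, a neighbouring Gata2 element. The counts of this member thus pool cRE1 with cRE2, the element of the variant, and do not measure cRE2 alone. The study reported a lower cRE2 peak in Fam5snv/snv, with no change in the cRE1 and cRE3 peaks. This member, at Dnajb8 (rank 291, chr6:88215707-88227356, 3 peaks), held 731, 471, 1145 and 872 cut sites, or 259, 169, 160 and 112 CPM. It was named after its values were seen. In the fit without WT replicate 1 described below, neither passed the test, with log2 fold changes of -0.55 at Gata2 and -0.32 at Dnajb8 (adjusted p of 0.117 and 0.398, edgeR).

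Members without a coding TSS numbered 173, and 36 of them (20.8%) held a noncoding start, against 6.84% of all such domains. The nearest coding start was over 50 kb away for 66 (38.2%), against 45.5% of all such domains. It belonged to a gene of the developmental factor lists for 8 members, or 4.62% against 3.39%. Those named here, chosen after their values were seen, lay nearest to Pou2f2 (2 members), Nr2f2, Nkx6-1, Epha4, Lmx1b and Onecut1. Nkx6-1 takes part in motor neuron development, and Nr2f2 encodes COUP-TFII. The member nearest to Nkx6-1 lay 74126 bp from its start, a single peak of 3204 bp with 732, 362, 1214 and 1374 cut sites. WT replicate 2 was the lowest of the 4 there.

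MicroRNA genes started in or within 1 kb of 24 members (4.80%), 14 of the 500 domains next in rank (2.80%) and 0.638% of all domains. Per Mb of joined width the figures were 4.38, 4.12 and 3.59, so per length the members lay closer to all domains. Among the 30 microRNA genes at members were several with known roles in neurons: Mir124a-3 (rank 45) and Mir124a-1 (rank 123), Mir219a-1 (rank 195) and Mir219a-2 (rank 285), Mir132 and Mir212 (rank 290) and Mir9-3 (rank 446). Mature sequences from RefSeq (GRCm38.p6) were found for 27 of the 30. Those of 4, picked after their values were seen, are given because they name the products of genes that lie in members, with the seed (bases 2 to 8) in capitals.
miR-9-5p, from Mir9-3 at chr7:79505279-79505301, plus strand: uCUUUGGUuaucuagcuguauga
miR-219a-5p, from Mir219a-2 at chr2:29845689-29845709, minus strand: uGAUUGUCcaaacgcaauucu
miR-132-3p, from Mir132 at chr11:75173723-75173744, plus strand: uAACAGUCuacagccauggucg
miR-212-3p, from Mir212 at chr11:75173443-75173464, plus strand: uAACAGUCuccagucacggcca
miR-132-3p and miR-212-3p have the same seed, and their genes lie in 1 member (chr11:75168863-75201678, 11 peaks) with 732 and 588 cut sites in WT and 1803 and 1902 in Fam5snv/snv. The member at Mir124a-3 (chr2:180879315-180898512), which also holds the last direct repeat printed above, held 1333 and 983 cut sites in WT and 2515 and 2748 in Fam5snv/snv. Its nearest coding gene was Ythdf1.

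The genotypes were compared in a fit over the 30551 domains that reached 10 cut sites in 2 or more libraries, all 500 members included. With all 4 libraries, edgeR's quasi-likelihood test called 0 of 500 members higher and 0 lower in Fam5snv/snv at an adjusted p under 0.05, as it called 0 (0%) of all domains in either direction. At an unadjusted p under 0.05, 0 members were higher and 44 (8.80%) lower, against 6.14% and 3.48% of all domains, and 0 members rose and 21 fell by DESeq2's adjusted p under 0.05, where 576 and 258 of all domains did. Leaving out WT replicate 2 in edgeR gave 0 members higher and 279 lower, where it gave 1996 and 929 of all domains. WT replicate 1 is part of this contrast and chose the members for their high counts in it, so nothing is read from these counts or from the median log2 fold change of the members of -0.29, where all domains had 0.03. The log2 ratio of WT replicate 2 to WT replicate 1 CPM was negative in 484 of 500 members (96.8%), with a median of -0.45, in 92.8% of the 500 domains next in rank, with a median of -0.39, and in 53.5% of all domains, with a median of -0.06. These sets were ranked by WT replicate 1, so nothing is read from this difference.

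**Figure D4:**
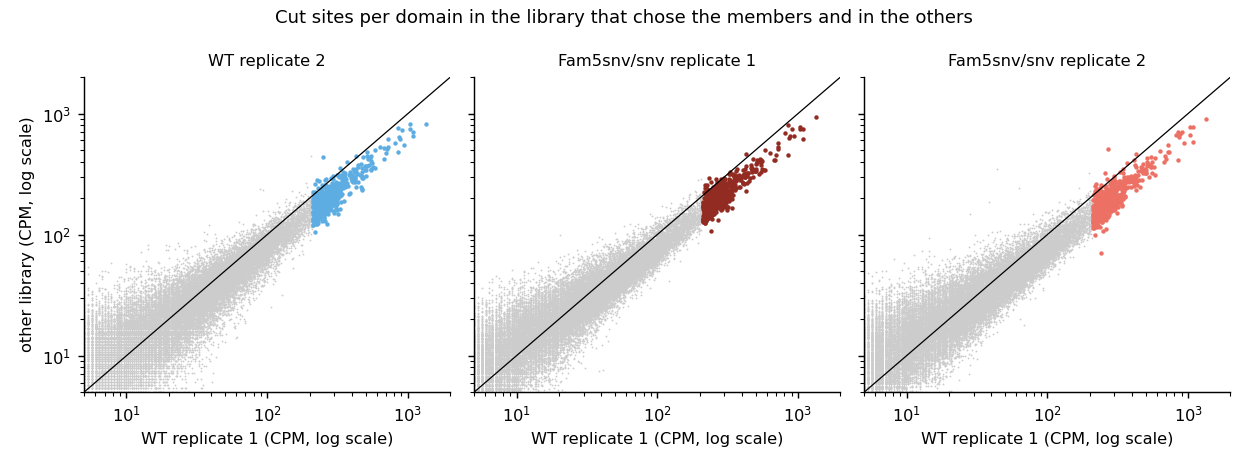
CPM of each domain in WT replicate 1 against its CPM in each of the other libraries, both on log scales; coloured points are the 500 members, grey points the other domains and the line marks equal values. Most members lie below the line in all 3 panels, WT replicate 2 included.

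The fit without WT replicate 1 set WT replicate 2 against both Fam5snv/snv libraries, in which the lone WT library is assumed to vary like the Fam5snv/snv ones. The median log2 fold change of the members was -0.05, against 0.04 over all domains, and 294 members (58.8%) had a negative value, against 47.6% of all. In the 500 domains next in rank the median was -0.06 and 58.6% were negative, so this lean was not particular to the members. At an adjusted p under 0.05 (edgeR), 15 members of 500 were higher and 8 (1.60%) lower in Fam5snv/snv, where 5.04% and 0.606% of all domains were. The number of calls depended on how peaks were counted. When a peak was counted for the domain that held its midpoint, the assignment first planned, 0 members and 0 of all 26445 domains tested were called in either direction, while values at named members stayed close, such as 0.93 at Spata13 and -0.84 at Onecut1. When the covered length of each library entered the fit, 1 member was higher and 1 lower, of 24 and 16 over all domains. Without TMM scaling 6 members were higher and 3 lower, of 2299 and 375 over all domains.

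The called members differed in the position of their strongest peak. Of the 15 members called higher, 14 had their strongest peak away from promoters, as had 1462 of the 1539 higher calls over all domains. Of the members called lower, most had it at a promoter, whereas most of the lower calls over all domains did not. Called or not, 54.8% of members and 34.04% of all domains had it at a promoter. Over all 274 promoter members the median log2 fold change was -0.13, with 75.9% negative, and over the other 226 it was 0.07, with 38.1% negative. Medians over all domains were split in the same direction, at -0.18 for promoter domains (69.2% negative) and 0.24 for the others (36.3% negative). Per kb of called peak the medians of the members were -0.06 at promoters and 0.04 elsewhere. Median called length at members was 4873 and 6943.5 bp in WT and 8068 and 9429.5 bp in Fam5snv/snv. It thus differed between the WT libraries too, and it rose in the order of the libraries' cut sites. Depth and genotype cannot be told apart here. The part of covered length in this split beyond the values per kb was not tested.

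**Figure D5:**
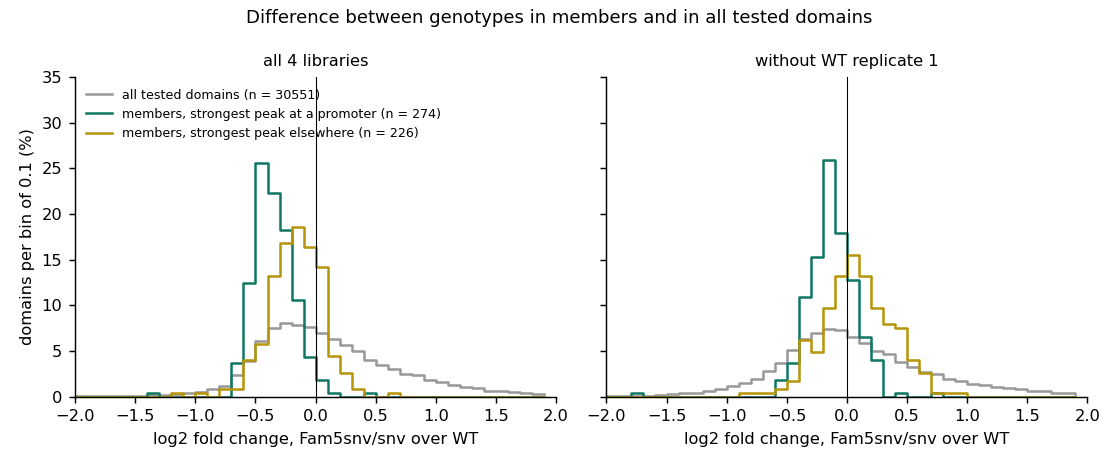
Log2 fold change of Fam5snv/snv over WT in bins of 0.1 against the percent of domains in each bin, with all 4 libraries (left) and without WT replicate 1 (right). Grey lines are all tested domains, green lines members with the strongest peak at a promoter and gold lines the other members; the members' lines lie mostly left of 0 on the left panel and to either side of it on the right.

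The 5 members of smallest p among those with a positive value were at or near Spata13, BC067074, Parvb, Dact1 and Cmtm8. The Spata13 domain (chr14:60630477-60638824), at a gene for a guanine nucleotide exchange factor, held 843 and 424 cut sites in WT and 1902 and 2297 in Fam5snv/snv, or 152 CPM in WT replicate 2 and 266 and 295 CPM in Fam5snv/snv. Its log2 fold change was 0.88 (95% interval 0.58 to 1.18, adjusted p = 0.0130, edgeR without WT replicate 1). Per kb of called peak it was 0.51 and did not pass (adjusted p = 0.275, edgeR). WT replicate 1, left out because it chose the members, had 299 CPM. The other 4 had log2 fold changes of 0.80, 0.76, 0.63 and 0.65, with adjusted p of 0.0130, 0.0165, 0.0201 and 0.0239 (edgeR). Dact1 encodes an antagonist of Wnt signalling and Parvb an actin-binding adhesion protein. Per kb of called peak these 4 had 0.23, 0.55, 0.65 and 0.79, and none passed (adjusted p of 0.755, 0.235, 0.120 and 0.0716, edgeR).

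The 5 of smallest p with a negative value were at or near Gm10800, Onecut1, Nuak1, Dcaf6 and 9130213A22Rik. The Onecut1 domain (chr9:74846414-74854907, 4 peaks between genes, 7723 bp from the start of this hindbrain and motor neuron factor gene) held 611 and 576 cut sites in WT and 889 and 772 in Fam5snv/snv, or 217 and 206 CPM against 124 and 99.2 CPM. Its log2 fold change was -0.89 (95% interval -1.26 to -0.52, adjusted p = 0.0193, edgeR without WT replicate 1), and per kb of called peak it was -0.53 and did not pass (adjusted p = 0.305, edgeR). The WT replicate 1 value chose the domain and is no support for this difference. Nuak1, Dcaf6 and 9130213A22Rik had log2 fold changes of -0.61, -0.57 and -0.57, with adjusted p of 0.0319, 0.0330 and 0.0347 (edgeR). Per kb they had -0.54, -0.44 and -0.39, and none passed (adjusted p of 0.274, 0.362 and 0.457, edgeR). The Gm10800 domain (chr2:98662155-98667458), the member with repeat-masked sequence over most of its called peak, held 703 and 1231 cut sites in WT and 1140 and 826 in Fam5snv/snv, with a log2 fold change of -1.74 (adjusted p = 0.00879, edgeR). Per kb of called peak its log2 fold change was -1.19, and it was the member called lower when covered length entered the fit. WT replicate 2 stood at 1.77 times the CPM of WT replicate 1 there, the highest ratio of all members. Beyond the rDNA-like stretch, no region was left out for its repeats.

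Of the 45 members at a gene of the lists, 0 passed the test without WT replicate 1. Their log2 fold changes ran from -0.42 at Nr1d2 to 0.31 at Chd4 with a median of -0.11, and 30 were negative. The smallest adjusted p was 0.0528 (edgeR), at Nr2f6, with a log2 fold change of -0.40 (95% interval -0.63 to -0.17). Nr2f1 had 0.13 (-0.18 to 0.45), Zfpm1 -0.32 (-0.55 to -0.08) and Tle3 0.24 (0.05 to 0.43). Each interval is for its domain alone and is not adjusted for the number of domains tested. An interval that leaves out 0 is therefore not a call.

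The ratio of the WT libraries varied between members. Those with the lowest ratio of WT replicate 2 to WT replicate 1 CPM were at Grpel1 (rank 139, ratio 0.458), near Prss56 (rank 262, 0.464) and near Pcnx (rank 468, 0.483). Most members had a ratio under 1, and those with the highest ratios were Gm10800 (rank 324, 1.77), Matk (rank 428, 1.26) and Ptch1 (rank 469). At Ptch1 the libraries had 217, 260, 256 and 230 CPM.

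The threshold fell where domains differed little. The last 2 members, at Fam110a and in Zfp276, both had 594 cut sites in WT replicate 1, and 624 and 484 in WT replicate 2. The first 2 domains outside, nearest to Tmem33 and at Nutf2, both had 591 in WT replicate 1, and 522 and 559 in WT replicate 2. In the 3 other libraries, 93, 76 and 86 of the 500 domains next in rank were among the 500 strongest.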

How the data were processed

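The authors deposited, per library, barcodes called as cells, called peaks and a matrix of cut-site counts for each peak in each barcode, made with Cell Ranger ATAC on mm10 per the labels' processing notes. Libraries held 3083946 to 10341894 cut sites, 1377 to 2740 barcodes and peaks over 31.0 to 143 Mb, and shared 3 to 12 barcodes per pair. The peak lists give positions only. Counts were summed over all barcodes, with no filter on cells and no doublet call. A peak counted for each domain it overlapped by 1 bp. The plan had been to use its midpoint, but wider peaks of the other libraries were often centred outside a domain (0 cut sites at 6873, 6687 and 8161 of 30898 domains), and this was changed before any fit. Domains were tested with edgeR 4.0.16 (quasi-likelihood, TMM, Benjamini-Hochberg, no block) in R 4.3.3, after a test on simulated data, and with DESeq2 1.42.0. Genes came from GENCODE M21, sequences from RefSeq GRCm38.p6, and gene models spanning 20 or more other genes gave no name where another gene was there.

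Named domains were the first 15 ranks, the 5 widest, members at listed genes (first 4 per list), the domain at Gata2, the 5 smallest p per direction, the pair on either side of the threshold, the 3 lowest and 3 highest WT ratios and 6 with a repeat. Members and lists were chosen with earlier results of these data known. Some results at listed genes are not reported here.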

Additional observations from a re-analysis of the deposited data

How the results depend on the processing

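With all 4 libraries, 0 members were called higher under every alternative but leaving out WT replicate 1. Called lower were 0, except with a WT library left out, with DESeq2 and with peaks counted only wholly inside a domain. DESeq2 called 21 members lower, where it called 258 of 30551 domains lower. Wholly inside, 38 of 285 tested members were lower, where 962 of 3616 domains were. Leaving out a library gave 0 to 15 members higher and 0 to 279 lower, the 279 without WT replicate 2. The members' median log2 fold change was -0.60 for peaks wholly inside, where that of all tested domains was lower still, at -1.59. With a library left out it was -0.48 to -0.05, where all domains had 0.02 to 0.04. A paired analysis with the replicate number as a block gave 0 higher, 0 lower and a median of -0.27. Same-numbered libraries did not deviate together (correlation -0.02 over domains).

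Without WT replicate 1, the 15 higher and 8 lower members became 6 and 3 on library size, 0 and 0 by midpoint, 0 and 0 wholly inside, and 1 and 1 per kb, which was added after seeing the data, as was a ranking by density over 1 kb. Wholly inside, values at Spata13 (-10.50), BC067074 (-12.67) and Gm10800 (10.15) turned sign, since libraries then lack a peak there. Shares of cut sites in members were 9.11%, 9.29% and 8.12% by midpoint and 2.97%, 2.44% and 1.75% wholly inside. Members among the 500 strongest numbered 182, 160 and 137 wholly inside and 125, 121 and 115 per kb. Members found again numbered 186 by width, 156 by density and 165 by density over 1 kb, and 364 to 400 with other joining.

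Replicate number limits the fits: with 1 residual degree of freedom and a lone WT library, a member that passed is not replicated in WT. Leaving out a Fam5snv/snv library from that fit was not run, since it leaves no residual degrees of freedom.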
